A study of Mus musculus with 24 samples.

Results

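The replication-dependent histone genes encode the core histones H2A, H2B, H3 and H4 and the linker histone H1 that package newly copied DNA. They were followed here in mouse ventricle at birth and at 1 month of age, in wild type and knockout mice. Members are the genes whose older symbol starts with Hist1h, Hist2h, Hist3h or Hist4h and which have a row of the expression table annotated with that gene alone. The probe annotation carries newer symbols, so that 0 rows began with these letters, and the older symbols were taken from the RefSeq annotation (GRCm38.p6) through each row's Entrez identifier. Of the 70 genes with such an older symbol, 32 had a row of their own and are the members, among 18819 genes tested. A further 36 occurred only in rows shared with other genes, and 2 in no row. By type the members are 5 H1, 7 H2A, 10 H2B, 3 H3 and 7 H4 genes. H2bu1-ps (Hist3h2bb) is annotated as a pseudogene. H2bc4 (Hist1h2bc) had more than 1 row, and the brighter one over 24 arrays stood for it.

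The mRNAs of these genes are made mainly in S phase, when DNA is copied. Most of them end in a stem-loop instead of a poly(A) tail, and stem-loop binding protein (Slbp) binds that end and guides its processing, export and translation. Heart muscle cells divide before birth and largely leave the cell cycle in the first days after it, and replication-independent variant histones then serve as the supply in cells that no longer divide.

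The 24 arrays comprise 4 groups of 6 ventricle samples from C57/Bl6 mice: newborn wild type (WT), newborn knockout (KO), P30 WT and P30 KO. Newborn mice were 1 to 2 days old and P30 mice 30 days old according to the annotation, while the methods of the study give slightly different windows. KO mice carried a pair of deletions, of which one was present in all tissues and the other was made where Cre recombinase under the Nkx2.5 promoter-enhancer had acted, that is in cells of the cardiac lineage, so that other cells of the ventricle kept the latter gene. The labels name the controls only as wild type, and the sex of each sample is not given.

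Values are log2 signals, on which a difference of 1 is a doubling. A member was called when its limma p-value, adjusted by Benjamini-Hochberg over all 18819 genes, was under 0.05. The cardiomyocyte markers had a mean log2 signal between 11.87 and 12.41 over the 24 arrays. Genes listed as atrial markers had a mean between 8.13 and 9.92 on the newborn arrays, between 6.40 and 9.77 in P30 WT and between 6.99 and 10.53 in P30 KO. They include Nppa, which the study also used as a marker of muscle cell hypertrophy. Whether their signal came from atrial tissue was not tested. In the newborn hearts, the WT array numbered 4 had the lowest mean over the members of its group and the KO array numbered 4 the highest of its group. The calls and the median of the members in newborn KO against WT are given with and without both.

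Promoters of 27 of the 32 members were held in the RefSeq table (GRCm38.p6), each with 250 bases before and 50 after the annotated start. The members without an entry are H2bu1-ps, H2bc4, H2bc21, H3c7 and H4c14. Below are 6 of them, written 5′ to 3′ on the strand of the gene. They belong to the H1, H2A, H2B and H4 genes with the largest differences with age, and to H1f2, an H1 gene that did not pass the test with age in WT. Capitals mark matches on either strand to CCAAT, the CCAAT box bound by factors of many promoters. They also mark TATAAA wherever it lies in the window, the letters of the core of the TATA box at which transcription machinery assembles. The remaining motif is ATTTGCA, the start of the octamer known from H2B promoters, and none of these overlapped another here.
H1f5 (Hist1h1b), chr13:21780576-21780875, minus strand: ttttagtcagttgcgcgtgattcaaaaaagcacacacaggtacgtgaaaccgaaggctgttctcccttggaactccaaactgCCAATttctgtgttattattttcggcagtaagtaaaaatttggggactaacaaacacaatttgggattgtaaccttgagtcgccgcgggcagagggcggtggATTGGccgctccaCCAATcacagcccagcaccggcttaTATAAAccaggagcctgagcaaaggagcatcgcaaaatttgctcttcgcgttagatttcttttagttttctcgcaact
H1f1 (Hist1h1a), chr13:23763418-23763717, plus strand: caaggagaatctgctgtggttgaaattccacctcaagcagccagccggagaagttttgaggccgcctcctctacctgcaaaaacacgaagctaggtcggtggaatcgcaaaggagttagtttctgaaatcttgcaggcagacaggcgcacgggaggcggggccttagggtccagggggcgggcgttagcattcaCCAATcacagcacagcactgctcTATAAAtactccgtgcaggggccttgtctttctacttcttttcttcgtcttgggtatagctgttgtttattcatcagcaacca
H1f2 (Hist1h1c), chr13:23738557-23738856, plus strand: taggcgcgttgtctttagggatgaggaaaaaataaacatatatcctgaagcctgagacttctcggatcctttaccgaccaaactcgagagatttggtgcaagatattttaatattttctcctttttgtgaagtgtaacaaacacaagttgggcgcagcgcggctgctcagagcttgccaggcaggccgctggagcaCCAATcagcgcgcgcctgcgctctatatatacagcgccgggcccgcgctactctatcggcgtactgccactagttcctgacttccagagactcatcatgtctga
H2ac4 (Hist1h2ab), chr13:23750838-23751137, plus strand: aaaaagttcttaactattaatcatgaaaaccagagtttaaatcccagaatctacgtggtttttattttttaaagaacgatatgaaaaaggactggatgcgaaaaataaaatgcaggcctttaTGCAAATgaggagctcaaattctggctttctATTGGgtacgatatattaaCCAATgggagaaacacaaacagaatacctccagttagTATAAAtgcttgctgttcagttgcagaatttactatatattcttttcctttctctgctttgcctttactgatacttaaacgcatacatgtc
H2bc3 (Hist1h2bb), chr13:23746484-23746783, plus strand: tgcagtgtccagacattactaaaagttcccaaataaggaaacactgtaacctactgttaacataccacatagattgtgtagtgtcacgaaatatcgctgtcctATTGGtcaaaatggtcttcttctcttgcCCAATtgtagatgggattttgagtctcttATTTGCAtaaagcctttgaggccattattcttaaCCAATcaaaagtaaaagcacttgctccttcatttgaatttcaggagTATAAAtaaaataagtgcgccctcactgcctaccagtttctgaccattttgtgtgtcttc
H4c6 (Hist1h4f), chr13:23551619-23551918, minus strand: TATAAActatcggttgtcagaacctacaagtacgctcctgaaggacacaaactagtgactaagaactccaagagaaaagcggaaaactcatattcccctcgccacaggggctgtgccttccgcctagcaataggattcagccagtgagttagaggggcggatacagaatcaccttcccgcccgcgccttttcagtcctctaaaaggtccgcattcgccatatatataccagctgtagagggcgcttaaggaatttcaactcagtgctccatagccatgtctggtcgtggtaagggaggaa
CCAAT was found in 23 of the 27 promoters (85.2%) against 37.4% of all 32851 promoters of the same length. The TATA box letters TATAAA were found in 17 of them (63%) against 13.6% of all promoters. These counts take matches anywhere in the window. The only match began at -250 from the start in H4c6, at -137 in H4c9, at -94 in H2bc1, at -10 in H2bc3 and at 21 in H2ac15. On the opposite strand it was at -212 in H2bc22 and at -142 in H2ac8. Such matches need not be a TATA box. The octamer start was found in 10 (37%) against 4.02%. All octamer matches of members lay in H2A genes, 5 of 7, and H2B genes, 5 of 7. CCAAT was in every H1, H2A and H2B promoter examined but in 2 of 6 H4 promoters. H2A and H2B genes often lie head to head, and the windows of H2ac1 and H2bc1 and of H2ac8 and H2bc8 overlap, so that they hold many of the same matches. H1f5, H1f1 and H1f2 all had the CCAAT box shortly before the start. The exact letters TATAAA were matched in H1f5 and H1f1 and not in H1f2. H1f2 has the similar letters tatatata between its CCAAT box and the start. These are matches of letters and were not tested as binding sites.

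From birth to 1 month most members fell in WT ventricle. Of 32 members, 24 were lower at P30 than in newborn hearts and 1 was higher, against 27.9% lower and 19.2% higher among all genes tested. The median log2 difference of the members was -0.97, beside 0.0024 for all genes. In 19 members all 6 P30 WT arrays lay below all 6 newborn WT arrays (18.2% of all genes), and in 1 they lay above (11.5%). In bulk tissue, fewer cells making a transcript and less transcript per cell cannot be told apart.

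**Figure D1:**
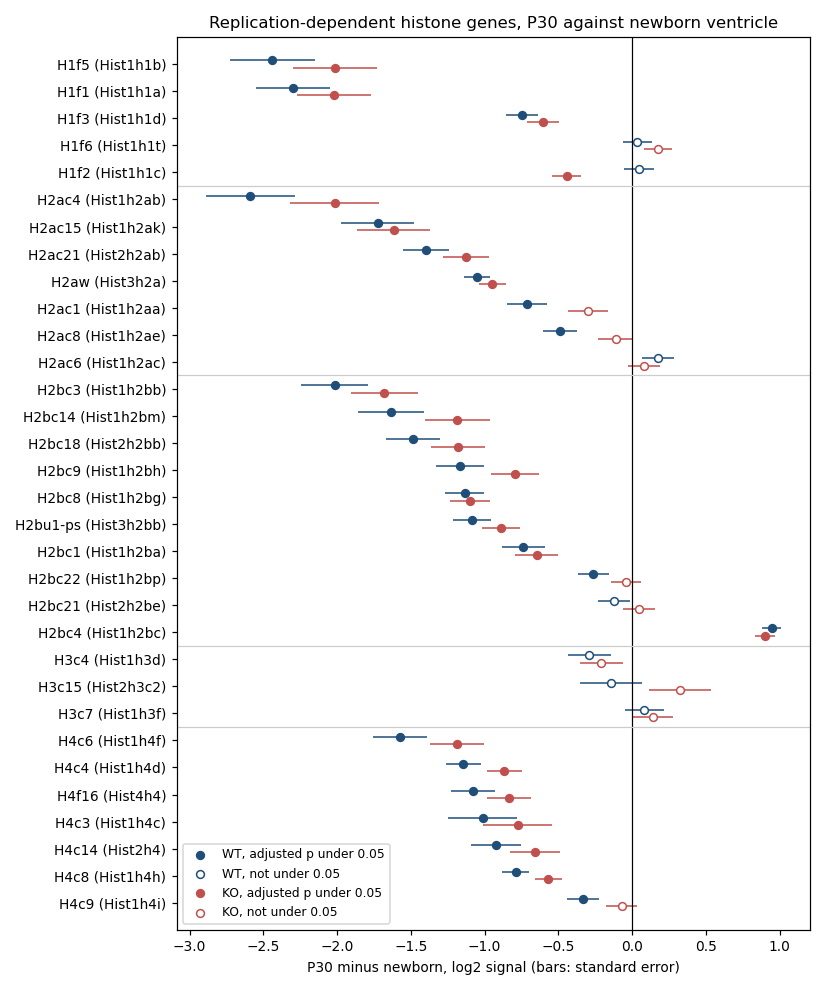
Log2 difference of P30 against newborn ventricle for the 32 members, grouped by histone type, in WT (blue) and KO (red), with standard errors; filled points have a limma adjusted p under 0.05. Most points lie left of 0, H2bc4 alone is filled to the right of 0 in both genotypes, and no H3 point is filled.

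The linker histones split. H1f5 (Hist1h1b), a main H1 of dividing cells, ran from 8.30 to 9.85 with a median of 9.42 in newborn WT and from 6.39 to 7.86 with a median of 6.80 in P30 WT. Its difference was -2.44 ± 0.29 (SE, n = 6 per group, limma adjusted p = 1.01e-07), a 5.42-fold lower signal. H1f1 (Hist1h1a), likewise an H1 of dividing cells, went from 8.05, 8.95 and 9.35 (lowest, median and highest) to 6.04, 6.46 and 7.31, a difference of -2.30 ± 0.25. In both genes the 2 age groups did not overlap.

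H1f2 (Hist1h1c), an H1 that is also made in non-dividing cells, did not follow them. Its values were 9.24, 9.52 and 9.63 in newborn WT and 9.27, 9.52 and 9.71 in P30 WT. The difference was 0.05 ± 0.10, with a limma adjusted p of 0.741, and the groups overlapped. H1f3 (Hist1h1d) fell by 0.75 ± 0.11 on the log2 scale from a signal near 4. H1f6 (Hist1h1t), the testis H1, was between 2.89 and 3.42 in both WT groups and had a difference of 0.03 ± 0.10.

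Among H2A genes 6 of 7 fell. H2ac4 (Hist1h2ab) had the largest fall of all members: 4.49, 5.98 and 6.48 in newborn WT became 2.66, 3.31 and 3.70 in P30 WT, a difference of -2.59 ± 0.30 (limma adjusted p = 1.00e-07) or 6.01-fold. H2ac15 (Hist1h2ak) fell by 1.72 ± 0.25 on the log2 scale, from a median of 10.03 to one of 8.17. H2ac21 (Hist2h2ab), the brightest H2A member, ran from 11.37 to 11.98 in newborn WT and from 10.07 to 10.84 in P30 WT, a difference of -1.40 ± 0.16 without overlap. The exception was H2ac6 (Hist1h2ac), with a difference of 0.17 ± 0.11 and an adjusted p of 0.192 at signals near 3, and it was called higher after median centring (0.24).

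Among H2B genes 8 of 10 fell and 1 rose. H2bc3 (Hist1h2bb) went from 8.45, 9.38 and 9.66 to 6.66, 7.31 and 7.69, a difference of -2.02 ± 0.23 (limma adjusted p = 5.04e-08). H2bc14 (Hist1h2bm) differed by -1.64 ± 0.22. The member that rose was H2bc4 (Hist1h2bc), the brightest H2B row, whose transcripts have been described with a poly(A) tail in differentiated cells. It had 9.43, 9.60 and 9.82 in newborn WT and 10.40, 10.57 and 10.64 in P30 WT. All P30 arrays lay above all newborn arrays, with a difference of 0.94 ± 0.07 (limma adjusted p = 1.55e-11), a 1.92-fold higher signal. The dimmer row of the same gene ran from 3.75 to 4.19 in newborn WT and from 3.81 to 4.29 in P30 WT, with a difference of 0.13 ± 0.12 that did not pass (limma adjusted p = 0.449 over all rows). With the mean of both rows in place of the brighter one, the difference of H2bc4 was 0.54 and still passed. H2bc22 (Hist1h2bp) passed narrowly, at -0.26 ± 0.10 and an adjusted p of 0.0383 that ranged from 0.0122 to 0.146 over the alternative settings.

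Among H4 genes 7 of 7 fell. H4c6 (Hist1h4f) had 7.60, 8.36 and 8.40 in newborn WT and 6.33, 6.67 and 6.95 in P30 WT, a difference of -1.58 ± 0.18 (limma adjusted p = 9.33e-08). H4c4 (Hist1h4d), the brightest H4 row, fell by 1.14 ± 0.12 on the log2 scale, from a median of 11.71 to one of 10.49. The smallest H4 fall was that of H4c9 (Hist1h4i), at -0.33 ± 0.11 with overlapping groups, with an adjusted p of 0.011. Its call was lost with median centring (-0.27, limma adjusted p = 0.0536) and with quantile normalization (-0.24, limma adjusted p = 0.0838). None of the 3 H3 members passed the test, with differences from -0.29 to 0.08 and group means between 2.12 and 3.92 on the log2 scale. H3c4 (Hist1h3d), at -0.29 ± 0.15, passed with array weights, without newborn WT array 4 (-0.42, limma adjusted p = 0.00963), without P30 WT array 4 and without both newborn arrays numbered 4.

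Members described with polyadenylated transcripts in differentiated cells numbered 5 and took 3 courses. H2bc4 rose, H2aw (Hist3h2a) and H4f16 (Hist4h4) differed by -1.05 ± 0.09 and -1.08 ± 0.15, and H1f2 and H2bc21 (Hist2h2be) did not pass, the latter at -0.12 ± 0.11. Of the 3 testis members, H2ac1 (Hist1h2aa) had a difference of -0.71 ± 0.14 and H2bc1 (Hist1h2ba) of -0.74 ± 0.14, both called, and H1f6 did not pass. The median signals in newborn and P30 WT were 5.66 and 4.97 for H2ac1 and 4.42 and 3.53 for H2bc1. Whether these rows also pick up transcripts of related histone genes was not tested. Of the members, 5 had a mean signal under the 30th percentile of all genes (3.55), and 3 of the 5 were among the 7 members that did not pass. The other 2, H2ac8 (Hist1h2ae) and H2bc22, were called lower.

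**Figure D2:**
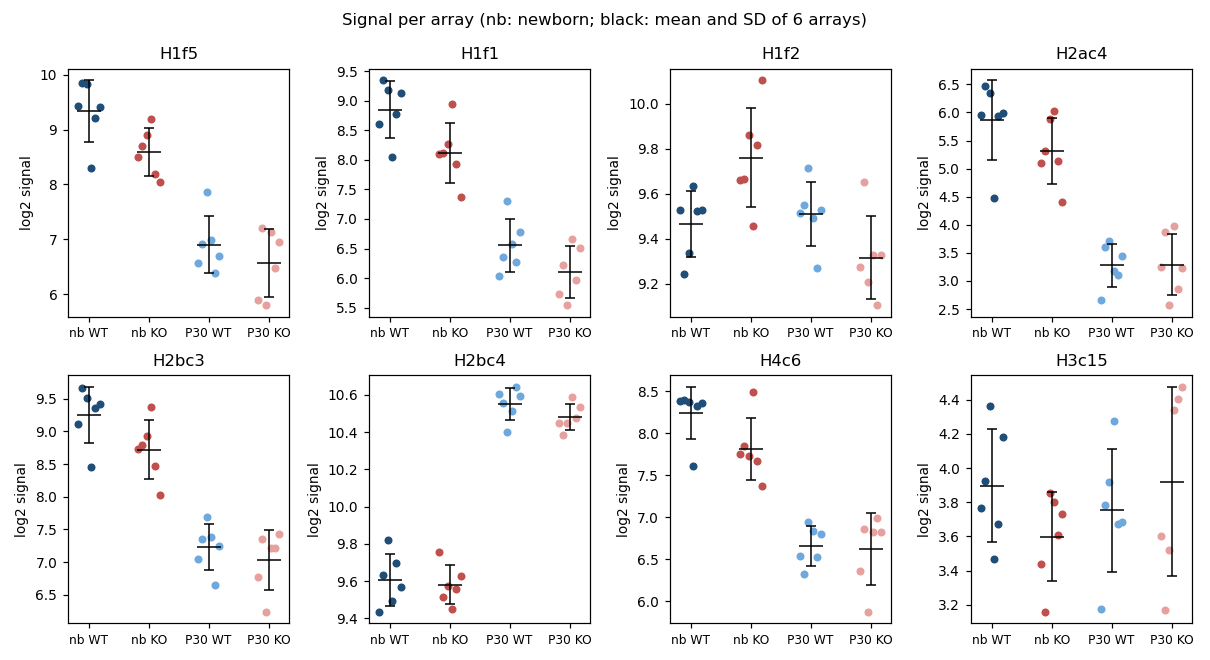
Log2 signal of 8 members on each array by age and genotype, with the mean and SD of each group of 6 in black; each panel has its own vertical scale. The P30 groups lie below the newborn groups for H1f5, H1f1, H2ac4, H2bc3 and H4c6 and above them for H2bc4, while the ages overlap in both genotypes for H3c15 and H1f2.

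Rows shared by several histone genes hold genes that had no row of their own, and many of these rows also name members. There were 37 rows whose 2 to 11 genes are all of the Hist1h to Hist4h kind, and 37 of them were lower at P30 in WT (20.4% of all 35017 rows), with a median of -1.42. The 10 shared rows of H3 genes had log2 differences from -1.85 to -1.62, with mean signals over 24 arrays of 10.76 or more. No single H3 row passed. Each of these shared H3 rows also names H3c4 or H3c15, whose own rows were far dimmer, so the 2 kinds of row partly cover the same genes. Shared rows of H2A (13 rows) had a median of -1.44, of H2B (7) -1.20 and of H4 (5) -1.03. H2bc4 is also named in 4 shared rows of 10 or 11 H2B genes, and their differences ran from -1.26 to -1.01. The shared rows name many of the same genes, so they are not independent of each other.

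**Figure D3:**
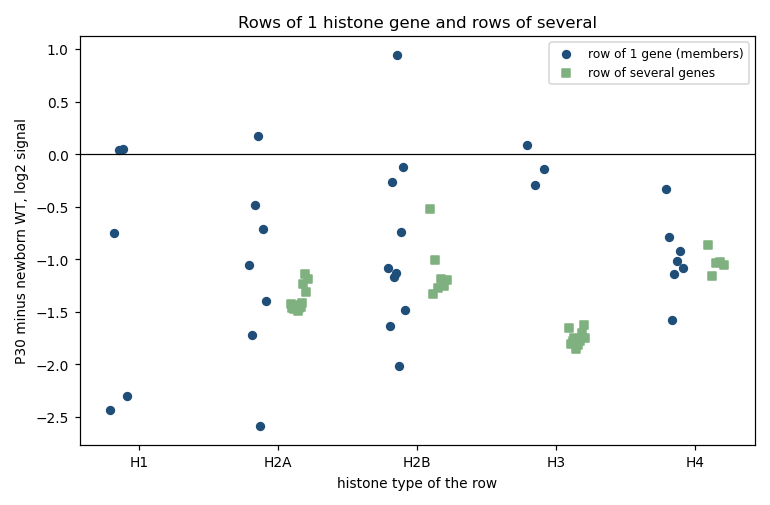
Log2 difference of P30 against newborn WT for the 32 members (blue circles) and for rows shared by several histone genes of 1 type (green squares), by histone type. The H3 squares lie between -1.85 and -1.62 while the H3 circles lie between -0.29 and 0.08, and no square lies above 0.

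In KO ventricle most members also fell with age. Of 32 members, 21 were lower at P30 (25% of all genes) and 1 was higher (34%), with a median of -0.72 beside 0.098 for all genes. All P30 KO arrays lay below all newborn KO arrays in 19 members (15.1% of all genes) and above them in 1 (15.9%). The call of a fall was made in both genotypes for 20 members. H1f5, H1f1 and H2ac4 each fell by 2.02 on the log2 scale, with SE of 0.29, 0.25 and 0.30. H2bc4 rose by 0.90 ± 0.07, from 9.45, 9.57 and 9.76 to 10.39, 10.46 and 10.59. In H2ac8 (Hist1h2ae), H2bc22 and H4c9 and in the testis gene H2ac1 the fall was called in WT and not in KO, with KO differences of -0.11, -0.04, -0.07 and -0.30. H2ac8, with means of 2.83 in newborn WT and 2.34 in P30 WT, and H2bc22 had mean signals under the 30th percentile of all genes. After quantile normalization H2ac8 was also called in KO, at -0.29, and H2ac1 was called in KO under several settings, so that these lists of calls depend on the processing.

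H1f2 was the member that was called in KO and not in WT. It ran from 9.46 to 10.11 with a median of 9.74 in newborn KO and from 9.10 to 9.65 with a median of 9.30 in P30 KO, a difference of -0.44 ± 0.10 (limma adjusted p = 0.000623). The difference between its KO effects at the 2 ages was -0.49 ± 0.14, with an unadjusted p of 0.00196 and a limma adjusted p of 0.218. A KO effect that differs between the ages was therefore not shown. Among all members 0 passed this test of the difference of effects (0.0106% of all genes), and 3 had an unadjusted p under 0.05 (12.9% of all genes), namely H1f2, H2ac8 and H2ac1. The median over members was 0.24 beside 0.084 for all genes.

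In newborn hearts the KO signals of most members were below WT, without any passing the test. By limma 0 of 32 members were called (0% of all genes), 12 had an unadjusted p under 0.05 (9.07% of all genes), and 11 of these had lower values in KO (7.62%). The difference was below 0 in 29 of 32 members, beside 68.8% of all genes, and the median was -0.25 beside -0.049. The 6 KO and 6 WT arrays overlapped in every member, while 0.436% of all genes were lower and 0.0531% higher without overlap. H2bc9 (Hist1h2bh) had the smallest p, with 7.87, 8.57 and 9.13 in WT and 7.58, 8.02 and 8.47 in KO, a difference of -0.51 ± 0.16 (unadjusted p = 0.00432, limma adjusted p = 0.392). H1f5 differed by -0.75 ± 0.29 and H1f1 by -0.73 ± 0.25. H1f2 went the other way, at 9.24, 9.52 and 9.63 in WT against 9.46, 9.74 and 10.11 in KO, a difference of 0.30 ± 0.10 with an unadjusted p of 0.00679 and an adjusted p of 0.402. H2bc4 had a difference of -0.03 ± 0.07.

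Arrays numbered 4 weighed on this comparison. The mean over the members was 6.30 on newborn WT array 4, against 6.74 as the median of its group, and 6.79 on newborn KO array 4, against 6.42. Without both arrays, 9 members were lower in KO (1.94% of all genes) and 1 was higher (0.622%), and the median was -0.37. The lower members were H1f5, H1f1, H2ac4, H2bc3, H2bc9, H2bc14, H2bc18 (Hist2h2bb), H4c4 and H4c6, at -0.44 to -1.08, and the higher one was H1f2, at 0.39 with an adjusted p of 0.0408. Leaving out any single array gave 0 called members. No label gives a reason to leave these arrays out. They were picked with earlier results of these data known, and leaving out the lowest WT and the highest KO array widens the difference by construction, so the calls without them are a description and no support for a difference.

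**Figure D4:**
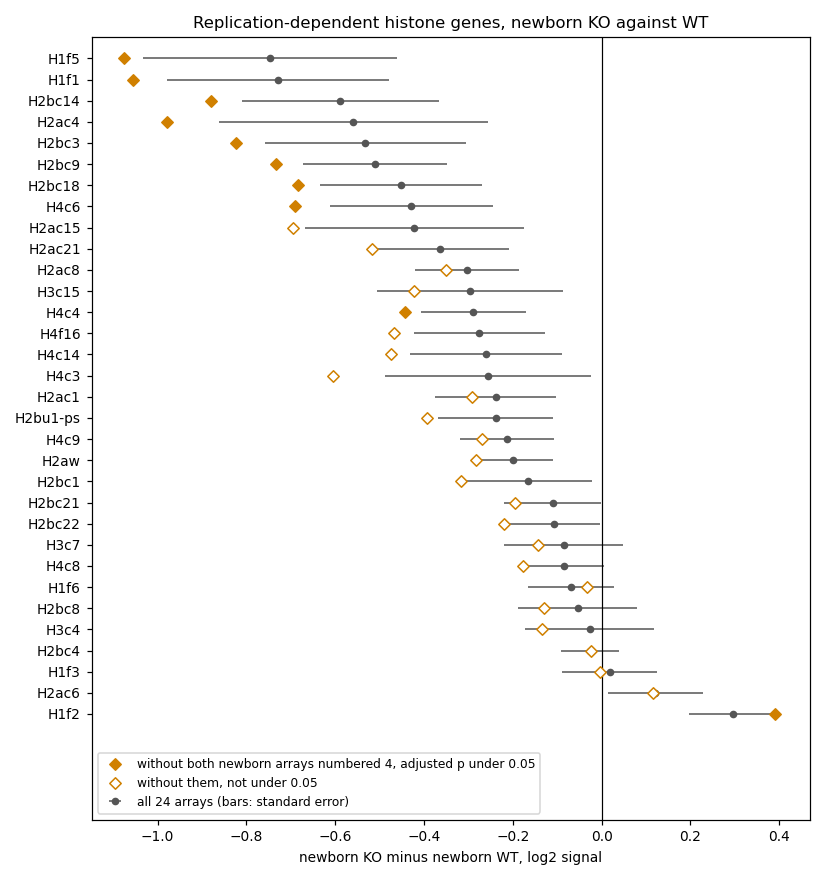
Log2 difference of newborn KO against newborn WT for each member, with all 24 arrays (grey, with standard errors) and without both newborn arrays numbered 4 (orange diamonds, filled where the limma adjusted p is under 0.05). Grey points lie below 0 for 29 of 32 members, and 10 diamonds are filled, of which H1f2 alone is above 0.

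At P30 the members did not separate KO from WT. None was called (1.02% of all genes), 0 had an unadjusted p under 0.05 (15% of all genes), and the median was -0.022 beside 0.033. The smallest adjusted p was that of H1f2, 0.364, at a difference of -0.20 ± 0.10. H1f1 had a difference of -0.45 ± 0.25, and every member's groups overlapped, while 0.404% of all genes were lower and 0.42% higher without overlap. Of the marker lists, cardiomyocyte markers had 2 of 8 genes lower in KO, namely Ttn (-0.44 ± 0.06, limma adjusted p = 0.000948) and Ryr2 (-0.24 ± 0.06, limma adjusted p = 0.0365), and endothelial markers had 1 of 8 lower, Egfl7 (-0.35 ± 0.09, limma adjusted p = 0.0446). Atrial markers had a median difference of 1.64 over 9 genes and fibroblast markers of 0.63 over 8 genes, with 0 genes passing the test in either list. Erythroid and leukocyte markers also had 0 passing. The part of these lists in the members' values was not tested.

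The genes around histone supply mostly fell with age in WT too. For this and the following lists, the shares of all genes called with age in WT were 27.9% lower and 19.2% higher. From lists written with earlier results of these data known, 34 of 35 genes of S-phase replication were lower and 1 higher, with a median of -1.62. Mcm2, a subunit of the replicative helicase, went from 8.18, 8.75 and 8.95 to 6.61, 6.83 and 6.90. Mcm7 of the same helicase fell by 2.06 ± 0.15 on the log2 scale, and the difference was -2.31 ± 0.18 for the licensing factor Cdt1 and -2.10 ± 0.16 for the primase subunit Prim1. Of 17 mitosis genes 16 were lower, with a median of -2.50.

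Factors that make and finish histone mRNA fell less. Of 23 such genes 17 were lower and 1 higher, with a median of -0.27. Npat, the coactivator of histone gene transcription, differed by -0.95 ± 0.08, and Slbp by -0.92 ± 0.14 (limma adjusted p = 5.59e-06), from a median of 7.45 to one of 6.46. Cstf3 and Cstf2, subunits of the cleavage stimulation factor, differed by -0.61 ± 0.08 and -0.54 ± 0.08. Of 20 histone chaperones and depositing enzymes 16 were lower. The replication-coupled chaperone subunits Chaf1b and Asf1b had differences of -2.29 ± 0.24 and -2.18 ± 0.23, and Nasp and Tonsl, which bind H3 and H4 before or at deposition, of -1.27 ± 0.13 and -1.30 ± 0.14.

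The listed replication-independent variants, which can be deposited outside S phase, did not rise as a group. This list also holds Cenpa, H2ax, H1f7, H2al2a, H2bfm and the oocyte gene H1f8, so its counts are not those of the variants of non-dividing cells alone. Of 15 measured, 8 were lower and 1 higher with age in WT, with a median of -0.41. H1f10, a variant linker histone, went from 6.67, 7.02 and 7.25 to 4.62, 4.85 and 5.11, a difference of -2.15 ± 0.12. H3f3b, a gene for the variant H3.3 listed beside H3f3a, differed by -0.94 ± 0.07. H2az1, encoding H2A.Z, differed by -1.16 ± 0.11 and Macroh2a2 by -1.53 ± 0.10. H1f0, the linker histone of differentiated cells, is not analysed here.

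In newborn KO against WT these lists gave 0 called genes. Their values are given only with both newborn arrays numbered 4. On the S-phase mean these were the lowest WT array (6.68) and the highest KO array (7.24) of the newborn groups. The S-phase list had 27 of 35 genes with an unadjusted limma p under 0.05 (9.07% of all genes) and a median of -0.41. Pold1 and Cdc6 had the smallest p (-0.39 ± 0.08 and -0.74 ± 0.16, limma adjusted p of 0.175 for both). Slbp had a difference of -0.33 ± 0.14, Cstf2 -0.28 ± 0.08, Eri1, an exonuclease that trims histone mRNA ends, -0.28 ± 0.10, and Macroh2a2 -0.40 ± 0.10. Chaf1a and Dnajc9 had -0.54 ± 0.17 and -0.34 ± 0.12, and the oocyte linker histone H1f8 had -0.31 ± 0.10.

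Across arrays the mean over the members followed the mean over the S-phase list in its order of groups. The member mean ran from 6.30 to 6.93 in newborn WT, from 6.22 to 6.79 in newborn KO, from 5.65 to 6.06 in P30 WT and from 5.45 to 5.99 in P30 KO. The S-phase mean ran from 6.68 to 7.47, 6.31 to 7.24, 5.64 to 5.92 and 5.49 to 5.93 in the same order. Both newborn groups lay above both P30 groups in either measure, while KO and WT overlapped at each age.

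**Figure D5:**
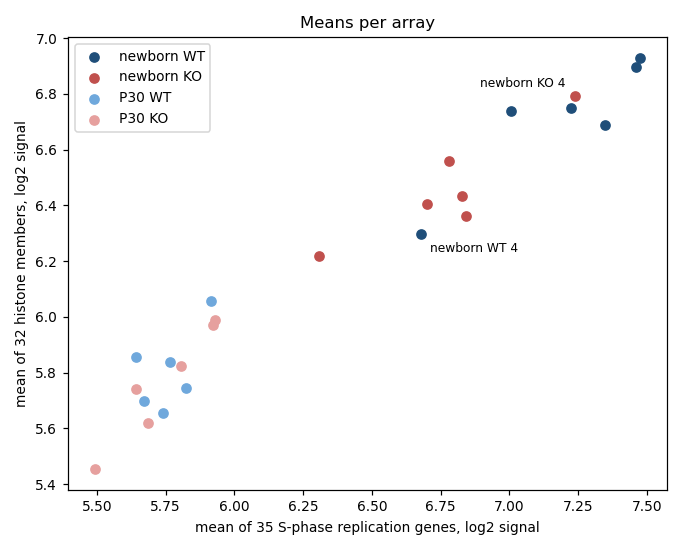
Mean log2 signal of the 32 members against that of 35 S-phase replication genes, 1 point per array, coloured by group. The newborn arrays lie above and to the right of the P30 arrays, newborn WT array 4 is the lowest of its group on both axes, and newborn KO array 4 is the highest of its group on both axes.

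Markers of other cells also moved with age in WT, where 27.9% of all genes were called lower and 19.2% higher. Fibroblast markers were lower in 6 of 8 genes, with a mean signal of 9.68 to 9.85 in newborn and 7.80 to 9.42 in P30 WT. Leukocyte markers were higher in 8 of 8, with 5.93 to 6.05 and 6.66 to 7.17. Endothelial markers were lower in 6 and higher in 1 of 8, atrial markers lower in 5 and higher in 2 of 9, and cardiomyocyte markers higher in 4 of 8. Erythroid markers were called in 0 of 7, and their part and that of the other cells in the members' values was not tested.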

How the data were processed

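RNA of 24 ventricle samples, 6 per group, was hybridised to Affymetrix whole-transcript mouse arrays. The authors deposited RMA log2 signals. RMA corrects background, equalizes arrays and summarizes the probes of a row. Per the submitters' processing notes, oligo version 1.22, limma version 3.14 and R version 2.15 were used. How the RNA was primed, which matters for transcripts without a poly(A) tail, is not given in the sources used here, nor is any batch. The number of arrays limits the precision, and p-values measure the spread between hearts.

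Of 35017 rows, 21118 named 1 gene, 1735 several and 12164 none. The row with the highest mean over 24 arrays stood for a gene. The test was limma's (version 3.58.1, in R version 4.3.3), fitting a mean for each group to all arrays at once (20 residual degrees of freedom), moderated variances and Benjamini-Hochberg adjustment, in 5 contrasts: P30 against newborn in WT and in KO, KO against WT at each age, and the difference of the KO effects. All adjusted p-values are limma's. Shared rows were fitted with all rows. Tested on simulated data for P30 against newborn WT with 18819 genes, the fit found 42 of 50 genes set to a 1.5-fold change. It found 50 of 50 at 2-fold, 49 of 50 at 3-fold and 50 of 50 at 4-fold, and also called 18 of 18619 that were not altered. The simulation altered a far smaller share of genes than was called with age in the data. It also had no shifts of whole arrays, so these rates need not hold for the data. Motifs were counted with Python version 3.11.15.

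The members and gene lists were chosen with earlier results of these data known. Named members are, within each histone type, up to 2 largest called falls and the largest called rise with age in WT, the brightest member, the smallest p in each KO comparison, and all testis and polyadenylated members. From the other lists up to 4 genes with the smallest p with age and up to 2 in newborn KO against WT are named, and Slbp. The targeted genes are not reported here. H2ac6, H1f3, H3c4, H4c9, Ttn, Ryr2, Egfl7, H2bc18 and the S-phase exception are named or counted outside this rule, after their values were seen. Alternatives were a filter at the 30th percentile of mean signal, quantile normalization, median centring, array weights, a trended and robust variance prior, blocking on replicate number, averaging a gene's rows, the compared arrays alone, an adjusted p under 0.01, a fold of at least 1.5, and leaving out each array or both newborn arrays numbered 4.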

Additional observations from a re-analysis of the deposited data

Results flagged for a closer look

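For the 22 named members and the mean over all 32 members, 92 groups of 6 arrays were examined for 1 array far from the other 5. Of these, 11 were picked out, where chance picks about 1 in 20. Newborn WT array 4 was the low array in 5 of them. Its values were 4.49 for H2ac4 (others 5.94 to 6.48), 7.60 for H4c6 (8.32 to 8.40), 9.07 for H2ac15 (9.84 to 10.22), 9.85 for H2aw (10.05 to 10.13) and 5.31 for H2bc21 (5.55 to 5.66). Newborn KO array 4 was high for H4f16, at 7.12 (6.43 to 6.64). In the P30 groups, H2aw was 8.46 on KO array 3 (8.87 to 9.09), H2bc14 was 8.81 on WT array 3 (7.86 to 8.21), H2bc22 was 2.78 on WT array 1 (3.19 to 3.32) and 3.17 on KO array 2 (3.29 to 3.32), and H2bc21 was 4.95 on WT array 6 (5.42 to 5.61).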

How the results depend on the processing

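In P30 against newborn WT, 22 to 26 of 32 members were called over all alternatives, 21 to 25 of them lower, and in KO 20 to 24, of which 19 to 22 were lower. The filter at the 30th percentile left out 5 members, among them H2ac8 and H2bc22, so fewer than 32 were tested there. Median centring took the WT count to 22 lower and 2 higher. The medians were between -1.08 and -0.85 in WT and between -0.84 and -0.62 in KO. P30 KO against WT and the difference of the KO effects gave 0 called members under every alternative run. Newborn KO against WT gave 0, except that leaving out both newborn arrays numbered 4 gave 10 (9 lower), with a median of -0.37 in place of -0.25, a difference that leaving out these 2 arrays widens by construction. Leaving out each array in turn gave 24 to 26 called members with age in WT, 22 to 23 in KO and 0 in the other comparisons, with medians of -1.05 to -0.88, -0.78 to -0.62, -0.33 to -0.20 (newborn KO against WT), -0.074 to 0.035 (P30 KO against WT) and 0.18 to 0.33 (difference of effects). H2bc22 with age in WT lost its call without newborn WT array 2, 3 or 6 or P30 WT array 1 or 6, and with median centring or the replicate block. H4c9 lost its call with median centring, which also made H2ac6 the added higher member, and with quantile normalization. H3c4 gained a call with array weights, without newborn WT array 4 or P30 WT array 4 and without both newborn arrays numbered 4. An adjusted p under 0.01 removed H2bc22 and H4c9, and a fold of at least 1.5 removed these and H2ac8 in WT, and H1f2 and H4c8 in KO. With age in KO, H2ac8 (-0.29) passed after quantile normalization, H1f6 (0.17) and H2ac1 with the compared arrays alone, and H2ac1 also with array weights and without newborn KO array 2, P30 WT array 3 or 5 or P30 KO array 4, and H3c15 in KO (0.47) without P30 KO array 2. The labels do not say whether the array numbers pair the samples. After removal of group means, 15 of 36 pairs of same-numbered arrays correlated above 0.1, with r from -0.44 to 0.64. The highest was that of P30 WT and P30 KO array 2. An array correlated best with its own number, among the 6 of the other group, in 11 of 36. These values do not settle whether the numbers carry a pairing. With the replicate block, 24 members were called with age in WT (23 lower), 22 in KO and 0 in the other comparisons. No cause of the other changes was tested.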
